A study of Mus musculus with 2 samples.

Results

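Elastic fibre and microfibril genes are described here as a group of 10 of the 15247 genes measured: the elastin gene Eln, the microfibril genes Fbn1, Mfap4 and Mfap5, the fibulin genes Fbln1, Fbln2 and Fbln5, the crosslinking enzyme genes Lox and Loxl1, and Emilin1. They were chosen by name, with earlier results of these data known, and all 10 were in the deposited table. Counts of called genes among them, and in the gene lists below, are therefore descriptive. Levels, shares of cells and differences between cell groups were read in fibroblasts and macrophages of the aged mouse heart.

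An elastic fibre is a core of crosslinked elastin laid onto a scaffold of microfibrils, which are chains of fibrillin with associated glycoproteins. Cells secrete soluble tropoelastin, fibulins help to bring it to the microfibril, and lysyl oxidases crosslink it. In the heart and its vessels and valves, elastic fibres give the wall its recoil, and microfibrils also hold latent TGF-beta complexes in the matrix.

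The cells came from hearts of C57BL/6 mice of the p16-FDR strain, aged 20 to 22 months. These mice carry an FLP recombinase and a diphtheria toxin receptor (DTR) fused to the red reporter mCherry, and cells positive for mCherry were isolated by flow cytometry. Single cells were profiled by droplet sequencing of transcript 3′ ends, in which each captured molecule is counted as 1 unique molecular identifier (UMI). The labels give 2 samples of 1 group, with no mCherry-negative, young or untreated sample, so no result below is a comparison with such cells. The labels do not say how many mice were used, whether cells were pooled, or how the transgene was placed in the genome. Each cell name starts with 1 of 2 prefixes, and the cells of a prefix are treated as a library, Heart1 or Heart2. No label ties a prefix to a sample record or says that the libraries came from separate animals. The p-values below rest on how far a difference between cell groups varied between these 2 libraries, a spread that may be technical.

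Fibroblasts were cells with a UMI of at least 4 of 6 fibroblast genes (Pdgfra, Dcn, Lum, Col1a1, Col1a2, Col3a1) and of at most 2 of 6 macrophage genes (C1qa, C1qb, Lyz2, Cd68, Fcer1g, Csf1r). Macrophages were defined by the reverse rule. The gates gave 205 fibroblasts, 37 macrophages and 24 other cells in Heart1, and 938 fibroblasts, 208 macrophages and 14 other cells in Heart2. No cell barcode was shared between the libraries. The median depth of a fibroblast was 11871 UMIs in Heart1 and 8771 in Heart2. In macrophages it was 8133 and 9568.5 UMIs.

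Nearly every fibroblast carried several of these transcripts. A fibroblast had UMIs of a median of 8 of the 10 genes in each library, and of 5 in each once every cell was thinned to 3000 UMIs. In macrophages the median was 0 before and after thinning. Levels below are UMIs per 1000000 UMIs, summed over the cells of a group (CPM). A 3′ UMI count does not grow with transcript length, so CPM was compared between genes without scaling by length.

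Eln, which encodes tropoelastin, stood at 212.7 CPM in Heart1 fibroblasts (95% exact Poisson interval 196 to 231) and 237.4 CPM in Heart2 (227 to 248). Such intervals cover counting error only. UMIs of Eln were found in 57.6% of Heart1 fibroblasts and 68.0% of Heart2 fibroblasts. These were lower shares than for the other genes of similar level. Emilin1, with 247.7 and 256.0 CPM, was found in 80.5% and 83.6%. In Heart1, 61.8% of the Eln UMIs came from the 10% of fibroblasts with most of them.

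The microfibril genes spanned a wide range. Fbn1, which encodes fibrillin-1, the main chain of the microfibril, stood at 353 CPM in Heart1 and 306 CPM in Heart2 and was found in 83.4% and 78.5% of fibroblasts. Mfap4, a glycoprotein that binds elastin and fibrillin, stood at 731 and 544 CPM but in only 64.9% and 50.1% of fibroblasts. Mfap5, a small microfibril glycoprotein also known as MAGP-2, stood at 1822 CPM in Heart1 and 912 CPM in Heart2, in 82.4% and 78.4% of cells. Mfap5 was 2.00 times as high in the one library as in the other.

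Fbln1, Fbln2 and Loxl1 were the most widely detected of the 10. Fbln1, whose protein is found in basement membranes and elastic fibres, stood at 758 CPM in Heart1 and 1096 CPM in Heart2, in 94.6% and 94.5% of fibroblasts. Fbln2 stood at 676 and 739 CPM, in 89.3% and 94.0% of fibroblasts. Fbln5, needed in mice for elastic fibres to form, stood at 244 and 354 CPM, in 82.9% and 85.2%.

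The lysyl oxidase genes differed from each other. Loxl1, the family member tied to elastin crosslinking and upkeep, stood at 401 CPM in Heart1 and 497 CPM in Heart2, in 91.2% and 94.0% of fibroblasts. Lox, which crosslinks both collagen and elastin, was the lowest of the 10 at 48.0 CPM and 22.9 CPM, in 23.4% and 15.4% of fibroblasts. Emilin1 encodes a glycoprotein at the interface between elastin and microfibrils.

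By the mean of the 2 libraries the order was Mfap5, Fbln1, Fbln2, Mfap4, Loxl1, Fbn1, Fbln5, Emilin1, Eln and Lox, from 1367 CPM down to 35.5 CPM. Neighbours whose library values overlapped, and whose order is therefore not settled, were Mfap5 and Fbln1, Fbln2 and Mfap4, Fbn1 and Fbln5, and Fbln5 and Emilin1. Heart1 against Heart2 is 1 library against 1 library, so the differences between them carry no test.

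**Figure D1:**
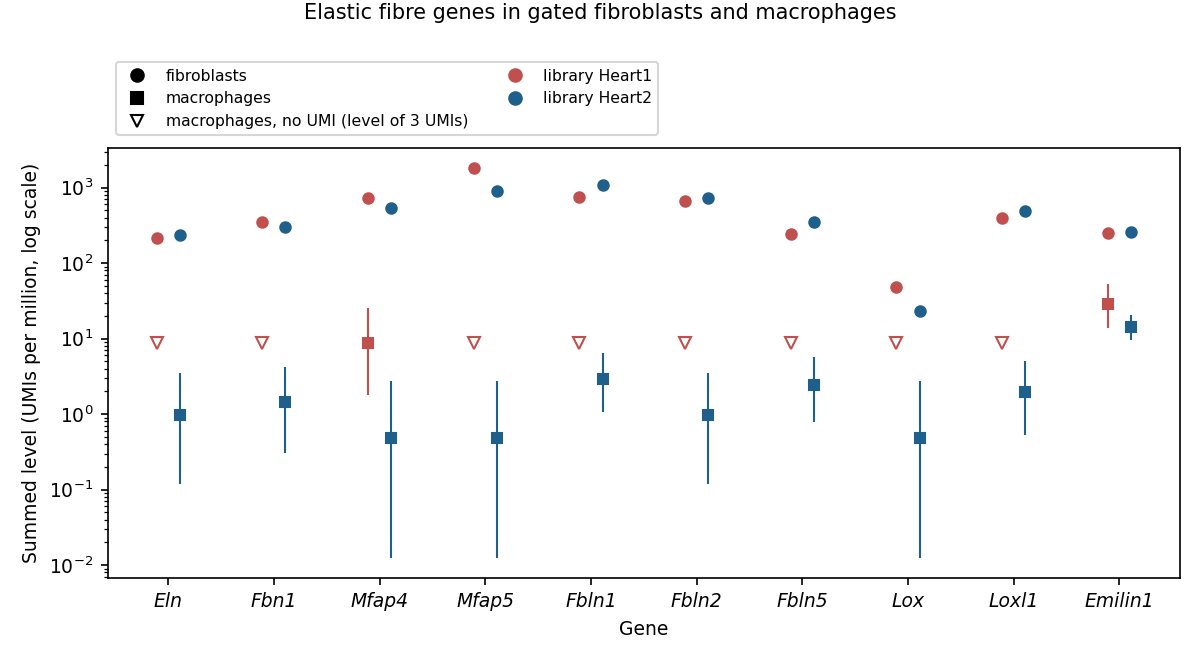
Summed level of each of the 10 genes in gated fibroblasts (circles) and macrophages (squares) of the libraries Heart1 and Heart2, in CPM on a log scale, with 95% exact Poisson intervals. Open triangles mark genes with no UMI in Heart1 macrophages, drawn at the level of 3 UMIs. Every fibroblast value lies above the macrophage value of the same gene and library, and Emilin1 has the highest macrophage values, 28.8 and 14.1 CPM.

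All 10 genes were higher in fibroblasts than in macrophages, where almost none of their transcripts were found. In Heart1 macrophages 8 of the 10 had no UMI, and Mfap4 had 3 UMIs. A level of 3 UMIs there is 8.64 CPM, and the exact Poisson interval of a gene without UMIs ends at 10.6 CPM. In Heart2 macrophages 9 of the 10 had 1 to 6 UMIs among 208 cells. Against a macrophage level of 3 UMIs, Heart1 fibroblasts held 211-fold more Mfap5, 87.7-fold more Fbln1, 78.2-fold more Fbln2 and 24.6-fold more Eln. The 95% counting intervals of the fibroblast to macrophage ratios start lower, at 171, 71.2, 63.5 and 19.9.

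Emilin1 was the exception among macrophages. It had 10 UMIs in 7 of 37 Heart1 macrophages (18.9% of cells, 95% exact binomial interval 7.96 to 35.2) and 29 UMIs in 27 of 208 Heart2 macrophages (13.0%, 8.73 to 18.3). Fibroblasts of the same libraries, at median depths of 11871 and 8771 UMIs, had it in 80.5% and 83.6%. The other 9 genes were each found in 0.481% to 2.40% of Heart2 macrophages. The ratio of the fibroblast to the macrophage level of Emilin1 was 8.60 in Heart1 (counting interval 4.65 to 18.0) and 18.1 in Heart2 (12.6 to 27.1). In Heart2 the ratio of Fbln1 was 375 (172 to 1022) and that of Fbln5 was 145 (62.3 to 448), so the Emilin1 interval lay below both. Lox could not be told apart from Emilin1 in this way, since its ratio was 47.1 with a counting interval of 8.35 to 1868 in Heart2. In Heart1, where macrophages had no Lox UMI, the counting interval of its ratio started at 4.45.

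Across genes, the groups were compared with limma on log2(CPM + 5) of the UMIs summed per library and group, with the library as a block and Benjamini-Hochberg adjustment over all genes tested. The threshold was an adjusted p of 0.05, and a gene was called past it. A log2 difference on this scale understates the change of low genes. In fibroblasts against macrophages, 10 of the 10 genes were called higher, where 26.2% of all genes tested were called higher and 17.4% lower. Log2 differences ran from 2.88 ± 0.42 for Lox (SE, n = 2 libraries, limma adjusted p = 1.11e-06) to 7.95 ± 0.26 for Mfap5 (limma adjusted p = 5.64e-21). Emilin1 differed by 3.34 ± 0.25 (limma adjusted p = 1.8e-12). The median over the 10 genes was 6.04, and over all genes 0.16. Each fit of 1 pair of groups left 1 residual degree of freedom, and limma added prior degrees of freedom estimated over all genes (27.5 in this fit and 8.15, 19.0 and 8.95 in the Wif1, Thbs4 and Pi16 fits). The standard errors and p-values thus rest mostly on a spread pooled over genes.

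Other genes of elastic fibre assembly followed the same division. Of a list of 24 assembly and crosslinking genes, 20 were high enough to test, and 18 of these were called higher in fibroblasts and 1 lower. Over all genes tested the shares were 26.2% and 17.4%. Bgn, a small proteoglycan of the matrix, stood at 4498 and 3149 CPM in fibroblasts against 14.4 and 3.90 CPM in macrophages. Ltbp4, a latent TGF-beta binding protein that works with Fbln5 in elastic fibre assembly, stood at 1249 and 1334 CPM against 0 and 6.33 CPM. The procollagen processing enhancer gene Pcolce stood at 982 and 1279 CPM against 0 and 12.7 CPM.

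Genes of elastin breakdown and its receptor, listed together with the inhibitor genes Timp1, Timp2 and Timp3, were called in both directions. Of a list of 14, all tested, 6 were called higher in fibroblasts and 6 lower, against 26.2% and 17.4% of all genes tested. Ctss, which encodes the elastin-degrading cathepsin S, stood at 2331 and 1920 CPM in macrophages against 0 and 0.239 CPM in fibroblasts. The inhibitor gene Timp3 stood at 1274 and 670 CPM in fibroblasts against 0 and 2.92 CPM. Mmp2, a gelatinase that also cuts elastin, stood at 574 and 833 CPM in fibroblasts against 0 and 1.46 CPM.

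Within fibroblasts, 3 subsets were gated by a UMI of Wif1, Thbs4 or Pi16. Wif1 encodes a secreted Wnt inhibitor, Thbs4 a thrombospondin of the matrix, and Pi16 a surface peptidase inhibitor used to mark adventitial-type fibroblasts. Wif1-positive cells numbered 38 in Heart1 (18.5% of fibroblasts) and 10 in Heart2 (1.07%). Thbs4-positive cells numbered 29 (14.1%) and 16 (1.71%), and Pi16-positive cells 185 (90.2%) and 854 (91.0%). Macrophages gave the background of these gates. None of the 37 Heart1 macrophages had a UMI of the 3 genes, which allows a share of up to 8.11% at a limit of 3 cells. Of the 208 Heart2 macrophages, 1 had a Wif1 UMI (0.481%, 95% exact binomial interval 0.0122 to 2.65), 0 had a Thbs4 UMI (up to 1.44%) and 15 had a Pi16 UMI (7.21%). The Heart2 share of Wif1-positive fibroblasts (interval 0.512 to 1.95) was thus not separable from the macrophage share, although the 10 positive fibroblasts held 107 Wif1 UMIs and the 1 macrophage held 1. For 0 of 208 cells the exact binomial interval ends at 1.76%, above the 1.71% of Thbs4-positive Heart2 fibroblasts. By that interval the Heart2 Thbs4 share was not separable from the macrophage share either. The groups overlapped. A Pi16 UMI was present in 28 of 38 and 6 of 10 Wif1-positive cells and in 28 of 29 and 16 of 16 Thbs4-positive cells. Each positive group was therefore compared with all other fibroblasts of its library.

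The gates fitted their companion genes unevenly. Comp, a cartilage matrix gene, stood at 2256 and 2137 CPM in Thbs4-positive cells against 476 and 49.7 CPM in the other fibroblasts. Coch, a valve gene, stood at 423 CPM in Wif1-positive cells of Heart1, where 11 of 38 cells had it, and at 0 in the 10 cells of Heart2. Dpp4, an adventitial marker, had UMIs in 8 Heart1 fibroblasts and 90 Heart2 fibroblasts. These counts cover all fibroblasts, and their split by Pi16 is not given here, so they do not show how Dpp4 followed the Pi16 gate. Other companion genes are not given here. The groups are accordingly called by their gate gene.

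Wif1-positive fibroblasts had lower levels of Eln, Fbn1, Mfap5, Fbln2 and Loxl1. Of the 10 genes, these 5 were called lower than in the other fibroblasts and none higher, nor was any higher at an unadjusted limma p under 0.05. Of all genes tested, 2.11% were called lower and 2.04% higher. At the unadjusted limit, 1287 of the 8612 genes tested passed, 758 of them lower. The median log2 difference was -1.19 over the 10 genes and -0.080 over all genes. After thinning to 3000 UMIs, a Wif1-positive cell had UMIs of a median of 3 of the 10 genes in Heart1 and 3.5 in Heart2, against 5 in the other fibroblasts of each.

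Fbn1 stood at 83.8 CPM in Wif1-positive cells and 413 CPM in the others of Heart1, and at 75.6 and 309 CPM in Heart2. Both positive values lay far below both negative values. The log2 difference was -2.10 ± 0.24 (SE, n = 2 libraries, limma adjusted p = 0.000997). Mfap5 stood at 235 against 2172 CPM in Heart1 and at 328 against 920 CPM in Heart2. It differed by -2.33 ± 0.34 (limma adjusted p = 0.00457). In Heart2, 79.5% of the Mfap5 UMIs of the 10 Wif1-positive cells came from 1 cell.

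Fbln2 stood at 186 against 784 CPM in Heart1 and at 160 against 747 CPM in Heart2, so both positive values lay below both negative values. The log2 difference was -2.12 ± 0.21 (limma adjusted p = 0.000483). Fbn1 and Fbln2 were also called when the library block was left out, where 0.639% of all genes were.

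Eln stood at 81.8 against 242 CPM in Heart1 and at 118 against 239 CPM in Heart2. It differed by -1.25 ± 0.25 (limma adjusted p = 0.024). The Heart2 positive level rests on 14 UMIs, 42.9% of them from 1 cell. The share of cells with an Eln UMI was 42.1% against 61.1% in Heart1 but 80.0% against 67.9% in Heart2. After thinning the Heart2 shares were 40.0% and 40.1%. Loxl1 stood at 180 against 450 CPM and at 252 against 500 CPM, and differed by -1.14 ± 0.22 (limma adjusted p = 0.018). Without the library block, Eln, Mfap5 and Loxl1 were not called (limma adjusted p = 0.135, 0.119 and 0.155).

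The 5 remaining genes did not pass. Fbln1 stood at 760 against 757 CPM in Heart1 and 1227 against 1095 CPM in Heart2, with a log2 difference of 0.085 ± 0.19 (limma adjusted p = 0.898). Mfap4 lay below the other fibroblasts in Heart1 (601 against 760 CPM) and above them in Heart2 (823 against 540 CPM). Fbln5 did the opposite, with 300.5 against 232 CPM and 185 against 357 CPM. Emilin1 stood at 198 against 259 CPM and 260 against 256 CPM. Lox had 1 UMI in the 38 Wif1-positive cells of Heart1 and 2 UMIs in the 10 of Heart2. The ratio of its level to that of the other fibroblasts was 0.0352 (counting interval 0.000884 to 0.199) and 0.730 (0.0878 to 2.67), and its log2 difference of -1.76 ± 0.64 did not pass (limma adjusted p = 0.215).

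Markers of another cell type moved with the Wif1 gate. Of 6 smooth muscle and mural genes, 5 were in the table, and their summed level was 456 CPM in Wif1-positive cells against 249.6 CPM in Heart1, and 151 against 49.8 CPM in Heart2. Rgs5, a pericyte gene, stood at 135 against 2.25 CPM and at 33.6 against 0.242 CPM. None of the 5 was at 0. Wif1-positive cells had a median depth of 11902 UMIs in Heart1 and 12034 UMIs in Heart2, against 11871 and 8699 UMIs for the other fibroblasts. The part of these genes and of depth in the differences above was not tested.

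Of the assembly and crosslinking list, 6 of the 20 genes tested were called lower in Wif1-positive cells and 2 higher. Over all genes tested the shares were 2.11% and 2.04%. Tnxb, which encodes tenascin-X, stood at 69.5 against 520.0 CPM in Heart1 and 134 against 860 CPM in Heart2 (log2 difference -2.72 ± 0.22, limma adjusted p = 0.000208). Emilin2, a relative of Emilin1, stood at 0 against 32.9 CPM and 8.40 against 48.0 CPM (limma adjusted p = 0.0322). Ltbp1, another latent TGF-beta binding protein, stood at 49.1 against 98.2 CPM and 8.40 against 167 CPM (limma adjusted p = 0.0496). The 8.40 CPM of Emilin2 and Ltbp1 lie below the 25.2 CPM that 3 UMIs give in Heart2 Wif1-positive cells. Among 11 tested genes of the breakdown and receptor list, 2 were called lower and 1 higher. Mmp14, a membrane-bound metalloproteinase, differed by -1.71 ± 0.26 (limma adjusted p = 0.00534) and the collagen- and elastin-degrading Ctsk by -1.54 ± 0.28 (limma adjusted p = 0.0145). The inhibitor Timp3 was higher by 1.43 ± 0.19 (limma adjusted p = 0.00243).

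**Figure D2:**
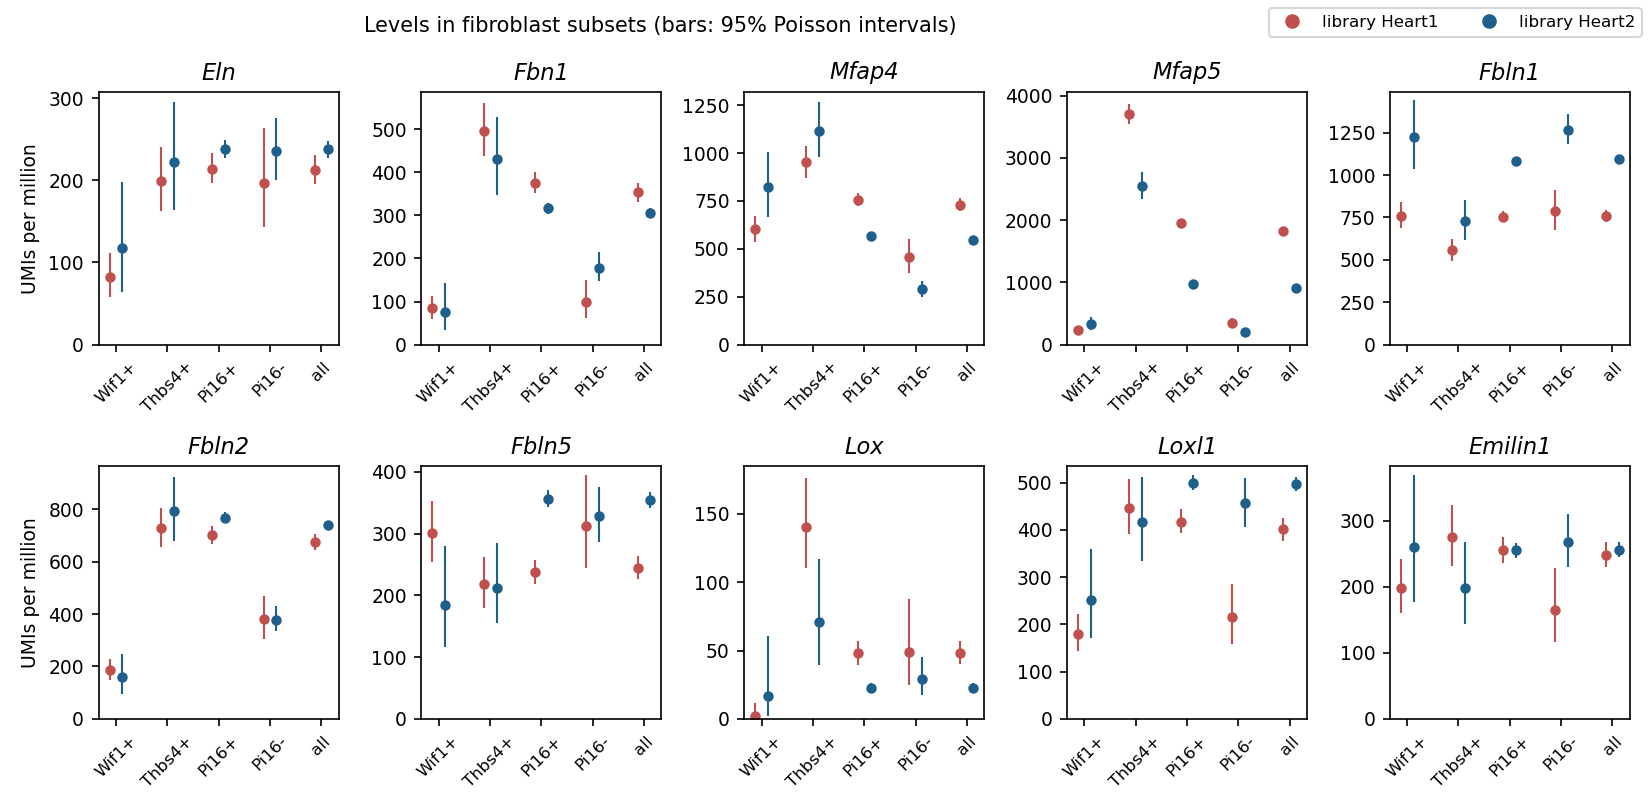
Summed level of each gene, in CPM with 95% exact Poisson intervals, in Wif1-positive, Thbs4-positive, Pi16-positive and Pi16-negative fibroblasts and in all fibroblasts of Heart1 and Heart2. Mfap5 is highest in Thbs4-positive cells (3704 and 2553 CPM) and low in Wif1-positive and Pi16-negative cells, while Fbln1 and Emilin1 vary less between groups.

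Thbs4-positive fibroblasts had higher levels of Mfap4, Mfap5 and Lox. Of the 10 genes, these 3 were called higher than in the other fibroblasts and Fbln1 was called lower. Of all genes tested, 2.37% were called higher and 3.06% lower. The median log2 difference was 0.044 over the 10 genes and -0.0087 over all genes.

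Lox stood at 140 CPM in Thbs4-positive cells and 25.7 CPM in the other fibroblasts of Heart1, and at 70.9 and 21.7 CPM in Heart2. The ratio was 5.46 in Heart1 (counting interval 3.81 to 7.87) and 3.27 in Heart2 (1.79 to 5.54), and the log2 difference was 1.88 ± 0.29 (limma adjusted p = 0.000185). Lox UMIs were present in 18 of 29 and 6 of 16 Thbs4-positive cells. In Heart1, 56.9% of all fibroblast Lox UMIs lay in these cells, which held 19.5% of all fibroblast UMIs. In Heart2 the shares were 7.81% and 2.53%.

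Mfap5 stood at 3704 against 1367 CPM in Heart1 and 2553 against 869 CPM in Heart2. All 29 and all 16 Thbs4-positive cells had a UMI of it. The log2 difference was 1.49 ± 0.12 (limma adjusted p = 5.93e-08). Mfap4 stood at 951 against 678 CPM and 1116 against 529 CPM, with a difference of 0.78 ± 0.16 (limma adjusted p = 0.00369).

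Fbln1 stood at 555 against 807 CPM in Heart1 and 728 against 1106 CPM in Heart2, and differed by -0.57 ± 0.15 (limma adjusted p = 0.0243). This call was lost under 5 alternatives, among them equal weight for each cell (limma adjusted p = 0.186) and thinning (limma adjusted p = 0.518). Fbn1 stood at 497 against 319 CPM and 430 against 303 CPM, and its difference of 0.57 ± 0.17 did not pass (limma adjusted p = 0.0595). The values of Eln (199 against 216 CPM and 222 against 238 CPM), Fbln2, Fbln5, Loxl1 and Emilin1 did not pass either, with log2 differences between -0.47 and 0.12. Without the library block, limma called none of the 10 genes and 0.0934% of all genes in this comparison, with adjusted p-values of 0.349 for Mfap4, 0.193 for Mfap5, 0.193 for Lox and 0.604 for Fbln1. At an unadjusted limma p under 0.05, 4 of the 10 genes were higher and 0 lower in that fit. Of all 8568 genes tested, 749 were under that limit there, 435 of them lower. Lox also missed the threshold after thinning (limma adjusted p = 0.0647), and Mfap4 when 2 UMIs of Thbs4 were required (limma adjusted p = 0.125).

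Depth and other markers moved with the Thbs4 gate. Thbs4-positive cells had a median depth of 16060 UMIs (Heart1) and 13220 UMIs (Heart2), against 11565 and 8699 UMIs for the other fibroblasts. The 5 smooth muscle and mural genes summed to 347 against 272 CPM in Heart1 and 492 against 39.8 CPM in Heart2. Kcnj8 was at 0 in the positive cells of Heart2, and 89 of the 104 UMIs there were Tagln in 4 of 16 cells. Their part in the differences was not tested.

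Among the assembly and crosslinking genes, 5 of 20 were called higher in Thbs4-positive cells and 3 lower. Over all genes tested the shares were 2.37% and 3.06%. Ltbp2, a fibrillin-binding relative of the latent TGF-beta binding proteins, stood at 1124 against 152 CPM in Heart1 and 719 against 14.5 CPM in Heart2 (log2 difference 4.03 ± 0.33, limma adjusted p = 3.64e-08). Loxl3, a further lysyl oxidase, stood at 146 against 33.5 CPM and 151 against 35.4 CPM. Efemp1, which encodes fibulin-3, went the other way with 17.1 against 305 CPM and 52.0 against 571 CPM (log2 difference -3.57 ± 0.23, limma adjusted p = 9.14e-10). From the breakdown and receptor list, 1 of 11 genes was called. Timp1, a metalloproteinase inhibitor, stood at 1865 against 398 CPM and 738 against 75.5 CPM.

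The Wif1-positive and Thbs4-positive cells were also set against each other, without the cells that had both, using 36 and 9 Wif1-positive and 27 and 15 Thbs4-positive cells. Fbn1 (-2.90 ± 0.29, limma adjusted p = 0.00107), Mfap5 (-3.76 ± 0.41, limma adjusted p = 0.00157), Fbln2 (-2.08 ± 0.22, limma adjusted p = 0.00128) and Lox (-3.34 ± 0.72, limma adjusted p = 0.0425) were called lower in the Wif1-positive cells, where 1.73% of all genes were called lower and 1.38% higher. Lox had no UMI in the 36 Wif1-positive cells of Heart1 and 2 UMIs in 1 of the 9 cells of Heart2, and its call was lost under 6 alternatives, with limma adjusted p-values up to 0.224. Eln (limma adjusted p = 0.0559) and Loxl1 (limma adjusted p = 0.0564) did not pass. Among the fibulin genes, Fbln2 was lower in Wif1-positive cells, and Efemp1 was higher (398 and 1200 CPM against 12.1 and 45.6 CPM). The microfibril gene Mfap2 was also higher in Wif1-positive cells, at 177 and 267 CPM against 14.1 and 30.4 CPM.

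**Figure D3:**
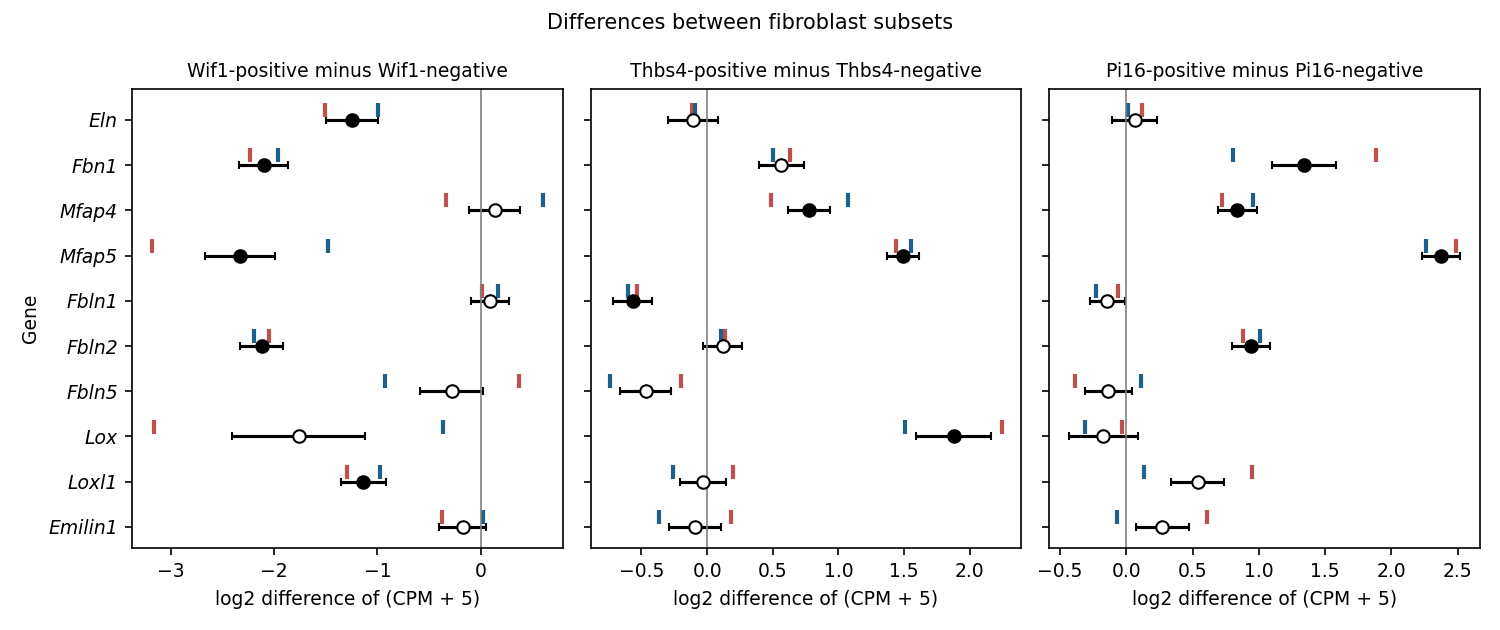
Log2 difference of CPM + 5 between marker-positive and marker-negative fibroblasts for Wif1, Thbs4 and Pi16, with the limma standard error over 2 libraries. Filled circles passed an adjusted p of 0.05, open circles did not, and red and blue ticks give Heart1 and Heart2. Fbn1 and Mfap5 lie left of 0 for Wif1 and right of 0 for Pi16, and Lox lies furthest right for Thbs4.

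Pi16-positive cells were the bulk of the fibroblasts, so this comparison sets the majority against 20 and 84 cells without a Pi16 UMI. Of the 20 cells in Heart1, 10 had a Wif1 UMI and 1 a Thbs4 UMI, so the Heart1 side shares cells with the comparisons above. In Heart2, 4 of the 84 had a Wif1 UMI. Fbn1, Mfap4, Mfap5 and Fbln2 were called higher in the positive cells and none of the 10 genes lower, nor was any lower at an unadjusted limma p under 0.05. Of all genes tested, 0.436% were called higher and 0.517% lower. At the unadjusted limit, 744 of the 8711 genes tested passed, 360 of them lower. The median log2 difference was 0.40 over the 10 genes and 0.0043 over all genes.

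Mfap5 stood at 1955 CPM in Pi16-positive and 344 CPM in Pi16-negative cells of Heart1, and at 972 and 199 CPM in Heart2. The difference was 2.37 ± 0.14 (limma adjusted p = 6.55e-05). In Heart1, 64.9% of the Mfap5 UMIs of the 20 negative cells came from 1 cell. Fbln2 stood at 702 against 379.9 CPM and at 769 against 379.5 CPM, a difference of 0.94 ± 0.14 (limma adjusted p = 0.0139).

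Fbn1 stood at 376 against 98.3 CPM in Heart1 and 317 against 179 CPM in Heart2, a difference of 1.34 ± 0.24 (limma adjusted p = 0.0317). Mfap4 stood at 756 against 456 CPM and 565 against 289 CPM, a difference of 0.84 ± 0.15 (limma adjusted p = 0.0307). With the strict class gate, both missed the threshold (limma adjusted p = 0.0783 and 0.133). Without the library block none of the 10 genes and 0.0115% of all genes were called by limma, with an adjusted p of 0.995 for each of these 4. At an unadjusted limma p under 0.05, that fit had 4 of the 10 genes higher and 0 lower. Of all 8711 genes tested it had 263 under that limit, 144 of them lower. Eln was nearly level, at 214 against 197 CPM and 238 against 236 CPM (limma adjusted p = 0.95). Fbln1, Fbln5, Lox, Loxl1 and Emilin1 did not pass, with differences between -0.17 and 0.54.

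The cells with no UMI of any of the 3 gate genes numbered 9 in Heart1 and 80 in Heart2, too few in Heart1 to be fitted. In these, Mfap5 stood at 297 and 202 CPM and Fbn1 at 124 and 187 CPM. Mfap4 stood at 37.2 CPM in Heart1 (3 UMIs, counting interval 7.67 to 109) and 298 CPM in Heart2. Fbln2 stood at 620 CPM in Heart1 (460 to 817), an interval that includes the 702 CPM of the Pi16-positive cells, and at 396 CPM in Heart2. Of the 50 Heart1 UMIs of Fbln2, 64.0% came from 1 of the 9 cells, a spread that the counting interval does not cover. The Heart1 values of Mfap4 and Fbln2 thus depended on which cells without a Pi16 UMI were taken.

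The 5 smooth muscle and mural genes stood at 241 CPM in Pi16-positive and 800.1 CPM in Pi16-negative cells of Heart1, and at 50.4 and 61.2 CPM in Heart2. Median depth was 11917 UMIs in Pi16-positive and 11002.5 UMIs in Pi16-negative cells of Heart1, and 8874.5 and 7397.5 UMIs in Heart2. The part of these genes and of depth in the differences was not tested. Of the assembly list, Ltbp2 and Emilin2 were called higher and Efemp1 lower in Pi16-positive cells among 20 tested. Over all genes tested, 0.436% and 0.517% were called higher and lower. From the breakdown list Timp3 was called lower among 11 (1166 against 2472 CPM and 634 against 1094 CPM).

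Since a single UMI separates few cells, fibroblasts were also split into 3 groups of about equal size by their Pi16 UMIs after thinning, a split chosen after the data had been seen. From the low to the middle to the high Pi16 group, Mfap5 stood at 850, 1854 and 2891 CPM in Heart1 and at 363, 691 and 1662 CPM in Heart2. Mfap4 stood at 473, 664 and 1112 CPM and at 307, 419 and 897 CPM. Fbln2 stood at 420, 629 and 1027 CPM and at 467, 757 and 983 CPM.

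Fbn1 stood at 182, 388 and 505 CPM and at 208, 297 and 409 CPM, so these 4 genes were ordered like Pi16 in both libraries, as was Loxl1 at 273, 415 and 529 CPM and at 448, 501 and 539 CPM. Between the high and the low group, Fbn1 differed by 1.14 and missed the threshold (limma adjusted p = 0.0502). Fbln1 was lowest in the middle group of both libraries (647 and 923 CPM). Fbln5 was lowest in the high group of both (197 and 345 CPM). Eln, Lox and Emilin1 were ordered differently in the 2 libraries.

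**Figure D4:**
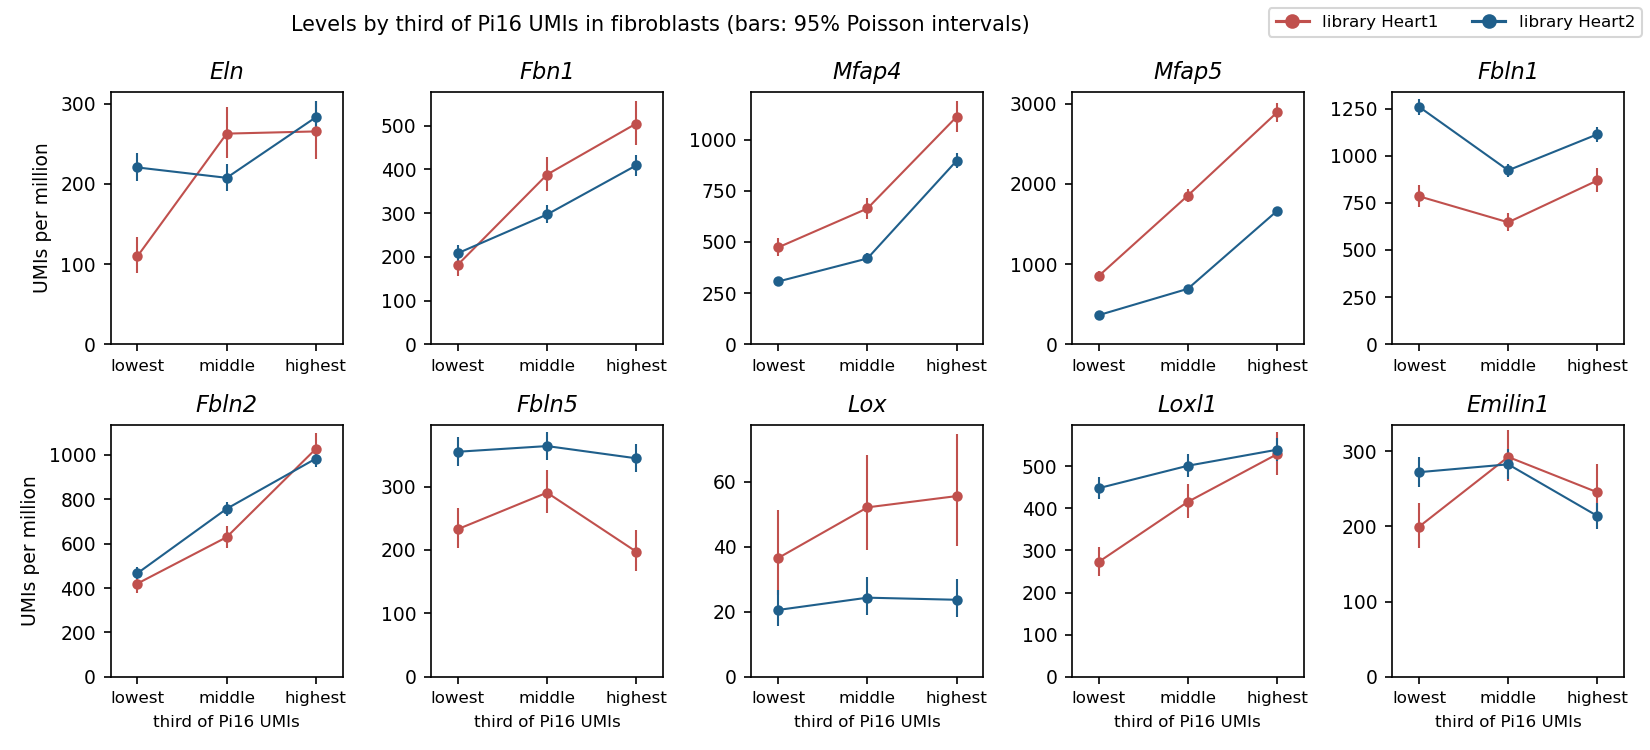
Summed level of each gene, in CPM with 95% exact Poisson intervals, in fibroblasts of the low, middle and high group by thinned Pi16 UMIs, for Heart1 and Heart2. Mfap5, Mfap4, Fbln2, Fbn1 and Loxl1 climb from the low to the high group in both libraries.

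Over single fibroblasts, some of the genes varied together. Cells of a library share their preparation and each pair shares the cell's depth, so the correlations describe the libraries and carry no p. The highest pairs in Heart1 and Heart2 were Fbln2 with Mfap5 (Pearson r of 0.56 and 0.43 over 205 and 938 cells) and Fbn1 with Mfap5 (0.55 and 0.28). Fbn1 with Fbln2 gave 0.52 and 0.28, and Eln with Mfap4 gave 0.41 and 0.27. Over the 80 Heart2 fibroblasts with no UMI of Wif1, Thbs4 or Pi16, Fbln2 with Mfap5 gave 0.18, Fbn1 with Mfap5 0.069, Fbn1 with Fbln2 0.38 and Eln with Mfap4 0.27. Fbn1 and Fbln1 were weakly opposed, with -0.17 and -0.16. Mfap5 had a correlation of 0.30 and 0.36 with the log of a cell's depth, the highest of the 10 genes in both libraries.

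The genes most like a given elastic fibre gene were taken as those with the highest lower-of-2-libraries r among 7918 genes. Mfap5 was closest to Igfbp6 (0.67 and 0.49) and Pcolce2 (0.58 and 0.48). Mfap4 was closest to Adamtsl2 (0.55 and 0.42). Adamtsl2 encodes a microfibril-bound protein and was also the second closest to Eln (0.50 and 0.23), after Mfap4. Fbn1 was closest to Anxa3 (0.50 and 0.31), Fbln2 to Mfap5, Loxl1 to Sparc (0.47 and 0.29) and Emilin1 to Col6a3 (0.30 and 0.32). Fbln5 was closest to Adm (0.29 and 0.29). For Lox the closest was Wisp2 at 0.15 and 0.17, which in counts this sparse is no finding.

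**Figure D5:**
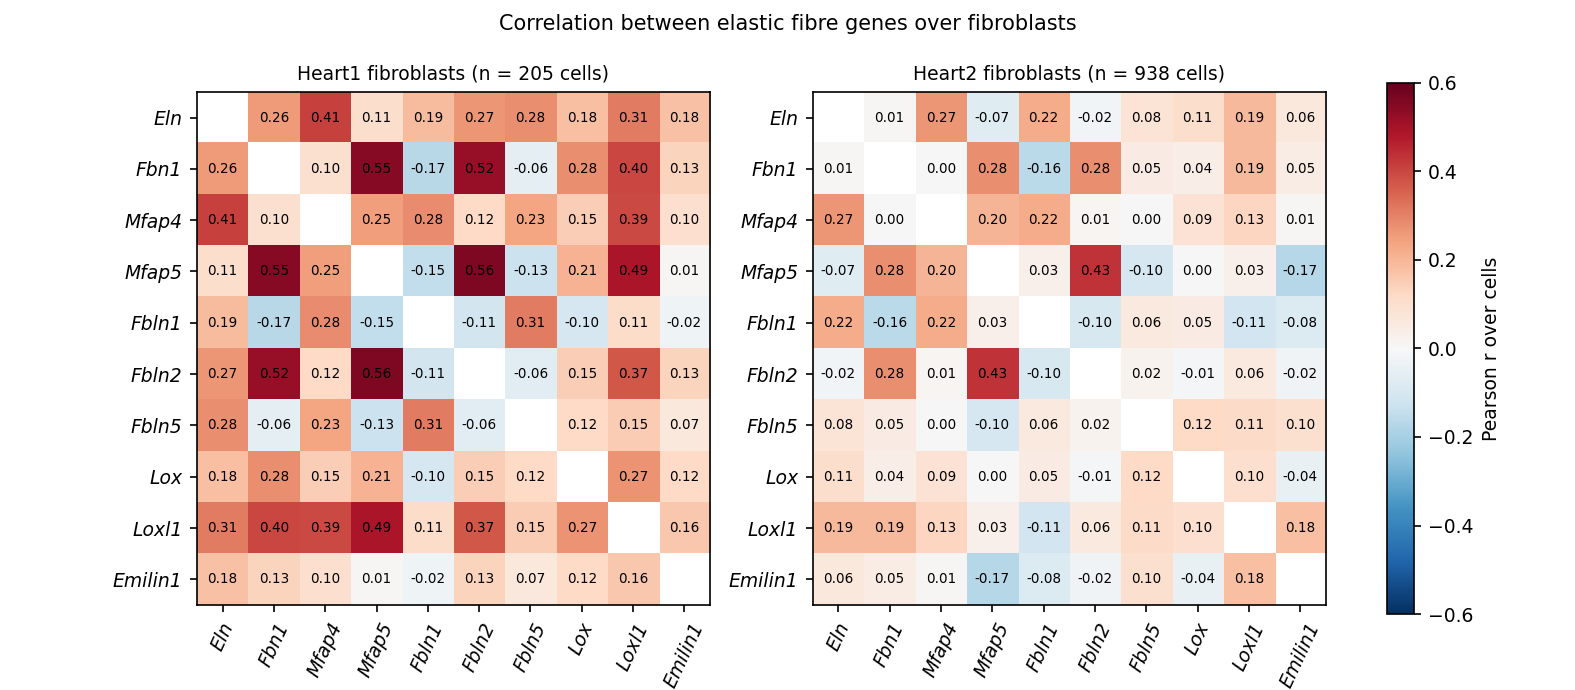
Pearson correlation of each pair of genes over single fibroblasts of Heart1 (205 cells) and Heart2 (938 cells), from blue (negative) through white to red (positive), with r printed in each square. Fbn1, Mfap5 and Fbln2 form the reddest block in both libraries.

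The mCherry reporter stands for the p16 gene Cdkn2a, whose own UMIs were found in 71 of 205 Heart1 fibroblasts and in only 7 of 938 Heart2 fibroblasts. Values by Cdkn2a are therefore given for Heart1 alone and carry no test. Mfap5 stood at 1500 CPM in cells with a Cdkn2a UMI and 2013 CPM in cells without, Fbln2 at 549.6 and 749.9 CPM, Fbn1 at 281 and 396 CPM, and Eln at 166 and 240.0 CPM. Mfap4 stood at 621 and 796 CPM. Lox stood at 57.8 and 42.2 CPM, from 58 and 72 UMIs. The counting interval of its log2 difference ran from -0.073 to 0.97, so its direction is not settled. Fbln1, Fbln5, Loxl1 and Emilin1 had log2 differences from -0.27 to -0.15, and the interval of Fbln5 ran from -0.39 to 0.082. With cells thinned to 5000 UMIs, and cells below that depth left out, 50 cells had a Cdkn2a UMI and 149 did not. Mfap5 then stood at 1288 and 1574 CPM, Fbln2 at 440.0 and 660.4 CPM, Fbn1 at 300.0 and 353 CPM, Eln at 148 and 263 CPM and Lox at 60.0 and 34.9 CPM. Thinned Mfap4 stood at 464 and 821 CPM, and the thinned Lox values rest on 15 and 26 UMIs. A Cdkn2a UMI was present in 25 of the 38 Wif1-positive cells, so the unthinned split was repeated without them. Mfap5 then stood at 2158 and 2179 CPM, Fbn1 at 368 and 433 CPM, Fbln2 at 695 and 824 CPM, Eln at 213 and 255 CPM and Lox at 83.9 and 46.5 CPM. Mfap4 stood at 690 and 791 CPM in that split.

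In the GRCm38 annotation the 10 genes are all protein coding. Fbn1 lies at chr2:125300594-125507993 on the minus strand and Mfap5 at chr6:122505845-122529290 on the plus strand, the same chromosome as Fbln2 at chr6:91212455-91272540. Eln at chr5:134702593-134747323 shares its chromosome with Emilin1 at chr5:30913402-30921277. Mfap4 at chr11:61485431-61488900 overlaps Mapk7 on the other strand, and Fbn1 overlaps Gm9913. Both partners are in the table, so reads of the overlap depend on the strand setting of the counting, which is not given in the sources used here.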

How the data were processed

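One deposited table was used, with 15247 genes in 1426 cells. Per the submitters' processing notes, the authors used Cell Ranger 3.0.2 and the build mm10. No label or header used here names the normalisation tool, the cell filters or the counting settings. The deposited values are natural log values, ln(1 + UMIs per 10000 UMIs of the cell), as read from the values themselves. All 4459440 values above 0 gave whole UMIs within 1e-06, and UMIs were recovered from them. Totals after gating are 2708557 and 8374950 UMIs in fibroblasts and 347087 and 2052710 UMIs in macrophages of Heart1 and Heart2.

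UMIs were summed per library and gated group and scaled to CPM. Genes whose mean over the sums reached 10 CPM were tested with limma 3.58.1 (R 4.3.3, trend and empirical Bayes) on log2(CPM + 5), with the library as a block. Sums of 1 library share their preparation, which is the pairing. Deviations of same-library sums correlated with r = 0.18, 0.20, 0.29 and 0.57 in the macrophage, Wif1, Thbs4 and Pi16 comparisons. The deposited unit is a log value, so no count model was run. The macrophage, Wif1 and Thbs4 fits were also run on simulated sums. These were drawn without a library effect, so they do not cover the pairing, and the other fits were not simulated. Ratios of 2 sums have exact conditional binomial counting intervals. Cells predicted as doublets (10 in Heart1, 3 in Heart2, scrublet in scanpy 1.11.5) were kept. Thinning drew 3000 UMIs per cell, or 5000 for the Cdkn2a values given as thinned.

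The 10 genes and the lists were chosen with earlier results of these data known. The design called for exclusive groups (only Wif1, only Thbs4, only Pi16, none) of at least 10 cells per library. These held 10 and 4, 1 and 0, 131 and 833, and 9 and 80 cells, so they could not be fitted. Each positive group against all other fibroblasts, a grouping listed among the alternatives, took their place, and this was decided after cell counts and levels of the 10 genes per group had been seen. The comparison of Wif1-positive with Thbs4-positive cells (at least 5 cells per library) and the 3 Pi16 groups were also added after seeing the data. All 10 genes are named. From each list, up to 3 called genes with the largest log2 difference per comparison are named. Likeness covers genes detected in 10% of fibroblasts of each library, and that of Fbln1 is not reported here.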

Additional observations from a re-analysis of the deposited data

Results flagged for a closer look

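The 24 and 14 cells outside both gates enter no comparison above. In Heart2 all 10 genes, and in Heart1 7 of the 10, lay above the level that 3 UMIs give, which is 14.6 CPM in Heart2 and 12.1 CPM in Heart1. Eln (3 UMIs), Loxl1 (2 UMIs) and Lox (0 UMIs) did not in Heart1. There, Emilin1 stood at 116.7 CPM, Fbln2 at 60.4 CPM, Mfap5 at 52.3 CPM, Fbn1 at 36.2 CPM, Fbln5 at 32.2 CPM, and Mfap4 and Fbln1 at 16.1 CPM each. All Fbln2, Mfap4 and Fbln1 UMIs there came from 1 cell each, and the Emilin1 UMIs from 6 cells. In Heart2, Fbln2 stood at 327 CPM, Fbn1 at 195 CPM, Fbln5 at 141 CPM, Mfap5 at 132 CPM, Loxl1 at 107 CPM, Mfap4 and Emilin1 at 92.7 CPM each, Fbln1 at 87.8 CPM, Lox at 63.4 CPM and Eln at 58.5 CPM. Of these, 80.6% of the Fbln2 UMIs and 85.0% of the Fbn1 UMIs came from 1 cell. The ungated cells also held markers of several other cell types. In Heart1, 3 B cell genes summed to 1280 CPM, 5 endothelial genes to 958 CPM and 3 T cell genes to 568 CPM. In Heart2 the sums were 0, 1219 and 48.8 CPM. In fibroblasts the endothelial genes summed to 8.12 and 5.49 CPM. Of the ungated cells, 8 of 24 and 2 of 14 were predicted doublets, among 10 and 3 in all cells of the libraries. The part of these cells in the levels was not tested.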

How the results depend on the processing

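All 10 genes stayed called in fibroblasts against macrophages under 10 alternatives. Subset results rest on 2 libraries, small groups and the library block. With no replicate block, genes called higher and lower numbered 19 and 36 for Wif1 (176 and 182 with it), 6 and 2 for Thbs4 (203 and 262), 1 and 0 for Pi16 (38 and 45) and 77 and 78 for Wif1 against Thbs4 (120 and 151). At an unadjusted p under 0.05, limma without the block gave 144 lower genes for Pi16. For Thbs4, 130 and 169 were called with 2 UMIs required, 84 and 74 after thinning, and 167 lower with a pseudocount of 1. For Pi16, 156 and 90 were called with equal weight per cell, 69 higher with a pseudocount of 20, 89 higher after thinning, 11 lower between the high and low Pi16 groups and 22 lower with the strict gate (5 of 6 own, at most 1 of 6 other markers). For Wif1 against Thbs4, 49 and 44 were called without a filter on low values, 51 and 77 after thinning, and 92 lower with a pseudocount of 1.

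Sign changes occurred in differences that had not passed. For Wif1, Fbln1 became -0.0083 with equal weight per cell. For Thbs4, equal weight, the strict gate and thinning gave 0.26, 0.069 and 0.67 for Eln and 0.086, 0.0052 and 0.23 for Loxl1, and Emilin1 became 0.076 with 2 UMIs required and 0.16 after thinning. For Pi16, Fbln5 became 0.17 after thinning, and Lox 0.23 with equal weight, 0.53 between the high and low Pi16 groups and 0.29 after thinning. For Wif1 against Thbs4, Emilin1 became 0.042 with median-ratio scaling and 0.013 with the strict gate, and Eln, Loxl1 and Fbln1 passed under 3, 4 and 1 alternatives. The cause was not tested. Thinning and 2 required UMIs left under 10 Wif1-positive cells in Heart2 and gave no value. Leaving out 1 library leaves no test. Lox, at 15 to 74 UMIs in Thbs4-positive cells and 1 to 2 in Wif1-positive cells, is limited by depth.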
